A study of Mus musculus with 12 samples.

Results

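Of the 41743 genes in the liver transcriptomes, 10 genes that carry bile acids and organic anions across the hepatocyte membrane are described here: 4 uptake carriers, 2 canalicular pumps and 4 basolateral exporters. They were chosen by symbol, though with earlier results of these data known, and each symbol was present in both deposited tables. RNA was sequenced in 12 frozen whole livers, all from females at 3 to 4 months, in 4 groups of 3. YAP KO mice (C57BL/6) carried Foxa3-Cre, Yap1 fl/fl and a ROSA-stop fl/fl-EYFP reporter, and were compared with WT littermates of that strain, called WT (C57BL/6). YAP KO TAZ HET mice (mixed C57BL/6-FVB) carried Foxa3-Cre with deletion of both Yap1 alleles and of 1 allele of Wwtr1, the gene for TAZ, and were compared with their own WT littermates, called WT (mixed). Foxa3-Cre acts in the foregut endoderm before hepatocytes and bile duct cells separate, so deletion was not limited to hepatocytes, and the study describes both models as lacking functional bile ducts. The 6 livers of the 2 models are called the deleted livers. Levels are TPM (transcripts scaled by length and library), a unit that allows genes to be compared within a liver.

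Hepatocytes take bile acids up from sinusoidal blood through the sodium-dependent carrier Slc10a1 (NTCP) and through organic anion transporting polypeptides of the Slco1 family, which also carry bilirubin conjugates, hormones and drugs. Bile salts then leave across the canalicular membrane through Abcb11 (BSEP), and conjugated bilirubin and other organic anions leave through Abcc2 (MRP2). When outflow into bile is blocked, the basolateral exporters Abcc3 (MRP3), Abcc4 (MRP4) and the heteromer of Slc51a and Slc51b (OST alpha and OST beta) can return bile acids to blood. Several of these genes are known targets of the bile acid receptor FXR (Nr1h4) and of other nuclear receptors.

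The label check came out as the genotypes state for Yap1, which had 28.2 to 33.2 TPM in the 6 WT livers, 1.67 to 3.72 TPM in YAP KO livers and 8.63 to 11.5 TPM in YAP KO TAZ HET. Wwtr1 had 6.26 to 6.83 TPM in WT (C57BL/6), 13.3 to 16.7 TPM in YAP KO, 7.73 to 8.38 TPM in WT (mixed) and 11.5 to 14.1 TPM in YAP KO TAZ HET, with log2 fold changes of 0.73 (limma, adjusted p = 0.00176) and 0.26 (adjusted p = 0.0743). The livers labelled TAZ HET thus did not have less Wwtr1 RNA than their littermates, and gene-level TPM do not by themselves check the loss of 1 allele. The hepatocyte markers Alb and Hnf4a were abundant in all 12 livers (at least 51590 and 165 TPM). Each library listed 14442 to 15047 genes above 0, and the TPM hold no read counts per library, so counting error could not be computed. Tests were made with limma on log2(TPM divided by a trimmed-mean scaling factor, plus 1), with Benjamini-Hochberg adjustment over all genes tested, and a gene was called at an adjusted p under 0.05. The scaling factors were 1.07 to 1.23 in the deleted livers and 0.857 to 0.947 in the WT livers, so a scaled difference is lower than the difference in deposited TPM. Without scaling, the median log2 fold change of all tested genes was 0.28 in YAP KO livers and 0.24 in YAP KO TAZ HET, against -0.04 in both with it, and 84% and 82.2% of calls were higher, against 51.1% and 50.2%.

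Slco1a1, Slco1a4 and Slco1b2 lie in 1 cluster of 8 genes of that family on chromosome 6 (GRCm38.p6, chr6:141524368-142322981). The other 5 genes of the cluster, Slco1c1, Gm5724, Gm6614, Slco1a6 and Slco1a5, did not exceed 0.156 TPM in any of the 12 livers, so these carriers were the only cluster genes with sizeable RNA. Slco1a1 and Slco1a4 shared 2.26% and 2.73% of their 50-base transcript windows with other genes, chiefly with each other and with Slco1a5, so reads in those windows are of uncertain origin.

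The promoters of the 3 uptake genes that were lower in both models and of Slc51b, which was higher in both, are printed. They were picked by these directions, and not every member with the half-site marked below is among them. Each is the stretch of up to 250 bases before the RefSeq start (GRCm38.p6), 5′ to 3′ on the gene's strand, cut where the annotated gene begins, with AGGTCA or its reverse complement TGACCT, the half-site that nuclear receptors bind, in capitals. The stretches are chr12:80968706-80968955 for Slc10a1, chr6:141946963-141947212 for Slco1a1 and chr6:141629268-141629517 for Slco1b2, while only 68 bases (chr9:65422956-65423023) are shown for Slc51b.
Slc10a1: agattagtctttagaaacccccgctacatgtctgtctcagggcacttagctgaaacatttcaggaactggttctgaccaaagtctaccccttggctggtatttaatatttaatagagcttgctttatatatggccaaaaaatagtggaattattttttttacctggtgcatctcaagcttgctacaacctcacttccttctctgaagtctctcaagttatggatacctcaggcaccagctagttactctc
Slco1a1: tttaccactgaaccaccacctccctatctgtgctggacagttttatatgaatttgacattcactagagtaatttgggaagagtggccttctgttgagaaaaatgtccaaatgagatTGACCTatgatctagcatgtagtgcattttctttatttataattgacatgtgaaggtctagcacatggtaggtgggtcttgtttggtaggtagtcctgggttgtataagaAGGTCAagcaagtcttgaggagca
Slco1b2: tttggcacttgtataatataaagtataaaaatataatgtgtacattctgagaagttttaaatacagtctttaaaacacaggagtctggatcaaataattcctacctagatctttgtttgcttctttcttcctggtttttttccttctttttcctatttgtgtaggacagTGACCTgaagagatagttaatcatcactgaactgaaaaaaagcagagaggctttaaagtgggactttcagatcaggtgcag
Slc51b: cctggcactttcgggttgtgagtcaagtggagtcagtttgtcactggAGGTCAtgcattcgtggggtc
Searched on both strands in the full 250 bases, the half-site AGGTCA was present in 6 of the 9 members with a RefSeq promoter (Slco1a1, Slco1b2, Abcb11, Abcc2, Slc51a and Slc51b), and in 13.84% of 27025 promoters of all genes. Slco1a1 held it at 2 places, with first bases 134 and 24 bases before the start. Its inverted repeat with 1 base between, AGGTCANTGACCT, was in none of the 9 and in 0.01% of all promoters. The TEAD core CATTCC was in 1 member, Slc51b, and in 12.63% of promoters. The antioxidant response core TGACNNNGC was in 2 members, Abcc2 and Abcc4, and in 10.15% of promoters, and the HNF1 half-site GTTAAT was in 1 member, Slco1b2, and in 6.52%. Slc10a1, which fell in both models, held none of these letters in this window. For Abcc2 and Slc51b the RefSeq start lies 116 and 182 bases inside the annotated gene. The Abcc2 half-site and antioxidant response core (first bases 49 and 98 before that start) therefore lie within the annotated gene. So does the Slc51b TEAD core (14 before). These matches describe sequence only.

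Of the uptake carriers, Slc10a1, Slco1b2 and Slco1a1 were lower in all 6 deleted livers than in any WT liver of their comparison, while Slco1a4 overlapped with WT in both models. In YAP KO, 3 of 4 uptake genes were called lower and in YAP KO TAZ HET 4 of 4, with median log2 fold changes of -1.69 and -1.73 against -0.04 over all genes tested in each. Over all tested genes 18.0% and 19.0% were called lower, and 56.7% and 54.5% did not overlap in deposited TPM, in either direction. The calls include Slco1a1, which passed the filter of 1 TPM in 3 livers through the WT livers. In YAP KO TAZ HET they include Slco1a4, whose call was lost in 8 of 14 alternative settings.

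**Figure D1:**
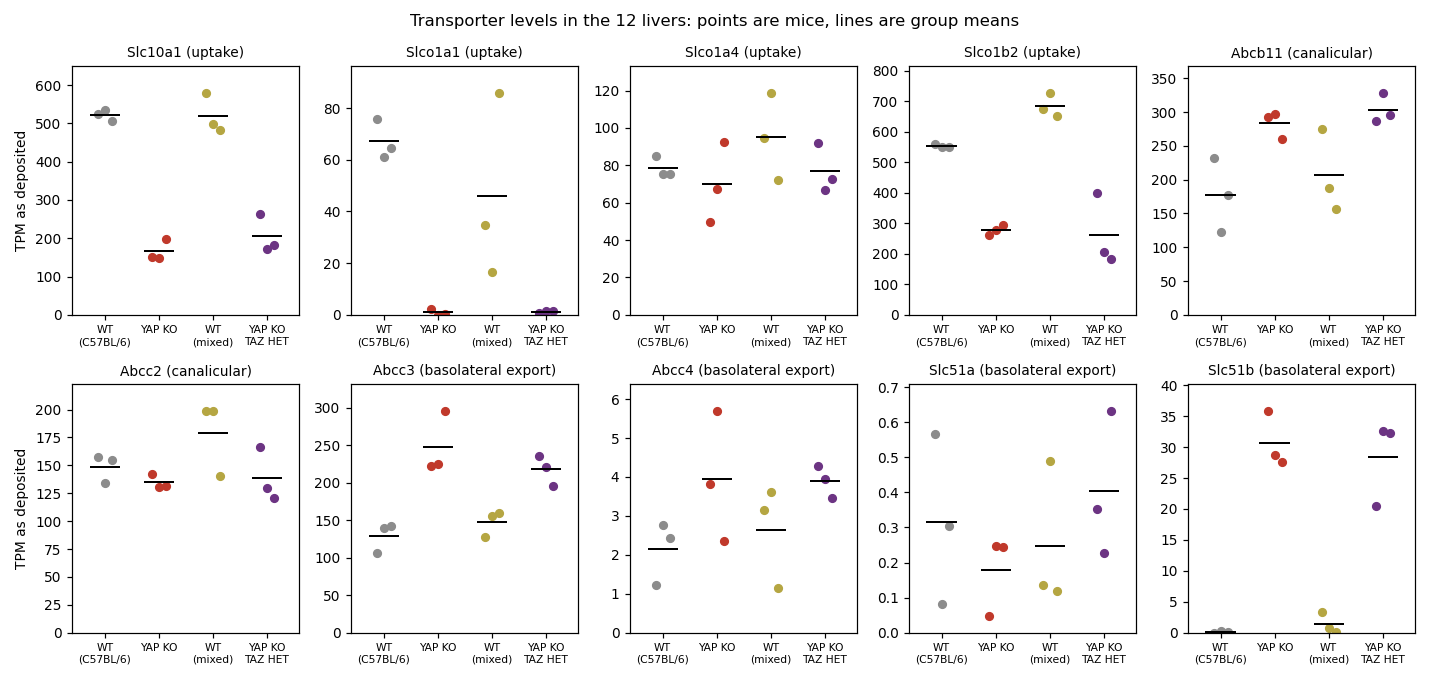
TPM as deposited (vertical axis, from 0, own scale in each panel) of the 10 transporters in the 4 groups; points are single mice (n = 3 per group) and lines are group means. Slc10a1, Slco1a1 and Slco1b2 sit lower and Abcb11, Abcc3 and Slc51b sit higher in every deleted liver than in any WT liver of the same comparison.

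Slc10a1 (ENSMUSG00000021135, chr12:80953183-80968705, minus strand), the main sodium-dependent bile salt carrier, measured 525, 536 and 507 TPM in WT (C57BL/6) mice and 151, 149 and 198 TPM in YAP KO. In WT (mixed) it measured 579, 499 and 482 TPM, and in YAP KO TAZ HET 263, 172 and 182 TPM. The groups did not overlap in either comparison, and the YAP KO TAZ HET mouse LM225 was the highest of the deleted livers. On the log2 scale the difference was -2.02 ± 0.14 (SE, limma, adjusted p = 4.48e-05) in YAP KO livers and -1.68 ± 0.14 (SE, limma, adjusted p = 9.38e-05) in YAP KO TAZ HET, n = 3 per group.

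Slco1b2 (ENSMUSG00000030236, chr6:141629518-141686646, plus strand), the mouse counterpart of the human OATP1B carriers for bilirubin conjugates and unconjugated bile acids, was the most abundant member in WT liver. It measured 561, 552 and 550 TPM in WT (C57BL/6) and 261, 277 and 293 TPM in YAP KO, a mean of 0.5 times the WT mean. In WT (mixed) it measured 676, 728 and 651 TPM, and in YAP KO TAZ HET 400, 206 and 184 TPM, where LM225 again stood above the other two. Its log2 fold change was -1.36 ± 0.11 (SE, limma, adjusted p = 9.13e-05) in YAP KO livers and -1.79 ± 0.24 (SE, limma, adjusted p = 8.25e-04) in YAP KO TAZ HET.

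Slco1a1 (ENSMUSG00000041698, chr6:141907282-141946962, minus strand), a sinusoidal carrier of steroid conjugates and other organic anions, had the largest fold difference of the uptake carriers. It measured 75.7, 61.0 and 64.5 TPM in WT (C57BL/6) and 2.32, 0.113 and 0.289 TPM in YAP KO. The WT (mixed) livers were spread widely at 34.9, 16.6 and 85.8 TPM, and the YAP KO TAZ HET livers had 0.78, 1.35 and 1.35 TPM. The lowest WT liver, LM227, was still above every deleted liver. The fitted log2 fold change was -5.59 ± 0.33 (SE, limma, adjusted p = 1.67e-05) in YAP KO, the 22nd most negative of 11704 tested genes, and -4.38 ± 0.50 (SE, limma, adjusted p = 3.63e-04) in YAP KO TAZ HET, the 28th of 11741. With levels near 1 TPM in the deleted livers, the added 1 TPM makes these fold changes smaller than the ratio of the means, which was 0.0135 in YAP KO livers and 0.0254 in YAP KO TAZ HET. Slco1a1 passed the filter of 1 TPM in 3 livers through the WT livers, where it is high. Its ranks and calls among tested genes are therefore a description.

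Slco1a4 (ENSMUSG00000030237, chr6:141805440-141856199, minus strand), a close relative of Slco1a1 and a known target of the xenobiotic receptor PXR, kept most of its RNA. It measured 85.2, 75.1 and 75.3 TPM in WT (C57BL/6) and 49.9, 67.2 and 92.6 TPM in YAP KO, with the highest YAP KO liver above all WT livers. It measured 94.7, 119 and 72.0 TPM in WT (mixed) and 92.2, 66.8 and 72.7 TPM in YAP KO TAZ HET, again with overlap, although after scaling every YAP KO TAZ HET liver was below every WT liver. It was called lower only in YAP KO TAZ HET, with a log2 fold change of -0.60 ± 0.18 (SE, limma, adjusted p = 0.0291) against -0.56 ± 0.23 (SE, limma, adjusted p = 0.0948) in YAP KO. The call in YAP KO TAZ HET was lost in 8 of 14 alternative settings (adjusted p 0.0147 to 0.264), and leaving out the YAP KO mouse LM191 gave a call in that model (log2 fold change -0.81, adjusted p = 0.0206), so these tests did not settle whether Slco1a4 differed. The ratio of Slco1a4 to Slco1a1 in deposited TPM was 1.13 to 1.23 in WT (C57BL/6) and 0.839 to 7.13 in WT (mixed), against 21.5 to 592.5 in YAP KO livers and 49.3 to 118.2 in YAP KO TAZ HET.

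In whole liver, fewer hepatocytes and less RNA per hepatocyte cannot be told apart. The summed TPM of 11 hepatocyte markers ranged from 99630 to 112200 in WT (C57BL/6) and 84380 to 93030 in YAP KO, and in the other comparison from 91350 to 114200 and from 81740 to 95880. Set against that sum, uptake RNA was 10.9 to 12.5 TPM per 1000 hepatocyte TPM in WT (C57BL/6) and 5.49 to 6.28 in YAP KO, and 11.3 to 15.2 in WT (mixed) and 4.58 to 9.25 in YAP KO TAZ HET, so the groups stayed apart on this scale. The scale largely follows Alb, which made up most of the sum. Alb was at 69930 to 83140 TPM in WT (C57BL/6) and 55900 to 62810 TPM in YAP KO. It was at 65660 to 82870 TPM in WT (mixed) and 51590 to 67540 TPM in YAP KO TAZ HET. Of these 11 markers, 4 were called lower and 0 higher in each model, but Alb, among those 4 in YAP KO (log2 fold change -0.75), was not called without scaling (-0.38, adjusted p = 0.0566), and 3 and 1 of the markers were called higher without scaling and 3 and 2 with quantile normalization.

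The canalicular pumps did not move together, and their calls turned on the scaling. Abcb11 had a higher mean and Abcc2 a lower mean in both models.

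Abcb11 (ENSMUSG00000027048, chr2:69238282-69342616, minus strand), the bile salt export pump, measured 232, 123 and 177 TPM in WT (C57BL/6) and 293, 297 and 261 TPM in YAP KO. It measured 275, 188 and 156 TPM in WT (mixed) and 287, 328 and 296 TPM in YAP KO TAZ HET. In deposited TPM every deleted liver was above every WT liver, but after scaling the groups overlapped in both models. The change came to a log2 fold of 0.36 (95% interval -0.16 to 0.88, limma, adjusted p = 0.252) in YAP KO livers and 0.27 (95% interval -0.13 to 0.67, limma, adjusted p = 0.255) in YAP KO TAZ HET. It was called higher with no scaling, at 0.72 (adjusted p = 0.0219) and 0.59 (adjusted p = 0.0338), with quantile normalization, at 0.68 (adjusted p = 0.0352) and 0.61 (adjusted p = 0.036), and with the highest WT liver of each comparison left out, at 0.60 without LM75 (adjusted p = 0.0361) and 0.46 without LM226 (adjusted p = 0.0411). The adjusted p of its alternatives spanned 0.0219 to 0.697 for YAP KO livers, 0.0338 to 0.614 for the other model, and each gave a log2 fold change above 0.

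Abcc2 (ENSMUSG00000025194, chr19:43782192-43840740, plus strand), the canalicular pump for conjugated bilirubin, measured 158, 134 and 154 TPM in WT (C57BL/6) and 142, 130 and 132 TPM in YAP KO. It measured 199, 199 and 140 TPM in WT (mixed) and 166, 130 and 121 TPM in YAP KO TAZ HET. The deposited values overlapped in both models, and after scaling every deleted liver was below every WT liver. It had a log2 fold change of -0.50 ± 0.11 (SE, limma, adjusted p = 0.0087) in YAP KO livers and -0.68 ± 0.15 (SE, limma, adjusted p = 0.00814) in YAP KO TAZ HET. The call was lost in both models without scaling, at -0.14 (adjusted p = 0.269) and -0.36 (adjusted p = 0.123), and with quantile normalization, at -0.25 (adjusted p = 0.0965) and -0.39 (adjusted p = 0.0948). The ratio of Abcb11 to Abcc2, which a single factor per library leaves unchanged, was 0.917 to 1.47 in WT (C57BL/6) and 1.98 to 2.28 in YAP KO, and 0.947 to 1.39 in WT (mixed) and 1.73 to 2.53 in YAP KO TAZ HET, so the deleted livers did not overlap with WT in it.

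Among the basolateral exporters, Slc51b rose from near 0 in both models, Abcc3 was the most abundant and had a higher mean in both, and Abcc4 and Slc51a stayed low. With 3 of these 4 genes tested, 2 were called higher in YAP KO livers and 1 in YAP KO TAZ HET. Over all tested genes 18.8% and 19.2% were called higher. The median log2 fold changes of the tested exporters were 0.57 and 0.27.

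Slc51b (ENSMUSG00000053862, chr9:65412714-65422955, minus strand), the beta subunit of the heteromer, was listed at 0, 0.299 and 0.16 TPM in WT (C57BL/6) and at 35.9, 28.7 and 27.6 TPM in YAP KO. It had 3.33, 0.823 and 0.146 TPM in WT (mixed) and 20.4, 32.7 and 32.3 TPM in YAP KO TAZ HET. Every WT liver was below every deleted liver, and the highest WT value was that of LM226. The difference amounted to a log2 fold change of 4.59 ± 0.15 (SE, limma, adjusted p = 9.40e-07), the 11th most positive of 11704 genes, in YAP KO livers and 3.58 ± 0.45 (SE, limma, adjusted p = 5.76e-04), the 33rd of 11741, in YAP KO TAZ HET. Slc51b passed the filter of 1 TPM in 3 livers only through the deleted livers, so it had to differ among tested genes, and its counts in calls are a description. Its exons overlap those of Rasl12 on the other strand, which shares 6.52% of its 50-base windows, but Rasl12 did not exceed 0.38 TPM in any liver.

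Slc51a (ENSMUSG00000035699, chr16:32474504-32487879, minus strand), the alpha subunit that Slc51b needs for transport, was under 1 TPM in every liver. It measured 0.567, 0.081 and 0.303 TPM in WT (C57BL/6) and 0.0486, 0.246 and 0.244 TPM in YAP KO. It measured 0.135, 0.491 and 0.119 TPM in WT (mixed) and 0.352, 0.228 and 0.632 TPM in YAP KO TAZ HET. All 12 values were under the 1 TPM of the filter, so Slc51a was not tested, and without the filter its log2 fold changes were -0.21 (adjusted p = 0.376) and 0.10 (adjusted p = 0.68). Of its 50-base windows 20.16% also lie in Pcyt1a, a neighbour on the other strand at 32.1 to 47.4 TPM, so reads of these neighbours cannot be fully told apart.

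Abcc3 (ENSMUSG00000020865, chr11:94343295-94392997, minus strand), a basolateral exporter of glucuronides and bile acids, measured 106, 139 and 143 TPM in WT (C57BL/6) and 222, 225 and 296 TPM in YAP KO. It measured 128, 155 and 159 TPM in WT (mixed) and 236, 221 and 196 TPM in YAP KO TAZ HET. The deposited values did not overlap in either model, while scaled values did so in YAP KO TAZ HET. Fitted on scaled values, the log2 fold change was 0.57 ± 0.17 (SE, limma, adjusted p = 0.0291) in YAP KO livers and 0.24 ± 0.14 (SE, limma, adjusted p = 0.196) in YAP KO TAZ HET. The YAP KO call was lost without the filter (adjusted p = 0.0507) and with 4 of the 6 mice left out in turn: LM75 (0.46, adjusted p = 0.0724), LM189 (0.60, adjusted p = 0.0623), LM191 (0.41, adjusted p = 0.0879) and LM192 (0.61, adjusted p = 0.0582). Abcc3 was called in YAP KO TAZ HET with no scaling, at 0.56 (adjusted p = 0.0062), and with quantile normalization, at 0.56 (adjusted p = 0.00877), so its call in that model rests on the scaling.

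Abcc4 (ENSMUSG00000032849, chr14:118482692-118706219, minus strand), an exporter that moves bile acids together with glutathione, was a minor transcript of 1.14 to 5.7 TPM in all 12 livers. Its mean was 2.14 ± 0.802 TPM (SD) in WT (C57BL/6) and 3.96 ± 1.67 TPM (SD) in YAP KO, and 2.63 ± 1.31 TPM (SD) in WT (mixed) and 3.9 ± 0.409 TPM (SD) in YAP KO TAZ HET, n = 3 per group. The groups overlapped in both comparisons. The log2 fold changes were 0.38 (95% interval -0.28 to 1.04, limma, adjusted p = 0.335) and 0.27 (95% interval -0.35 to 0.88, limma, adjusted p = 0.463).

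**Figure D2:**
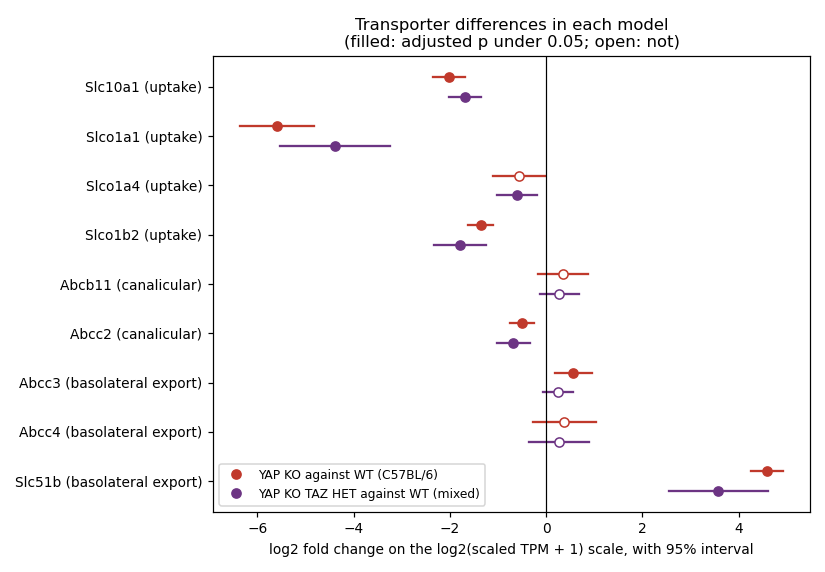
Log2 fold change (horizontal axis, log2(scaled TPM + 1) scale) with its 95% interval for the 9 tested transporters, for YAP KO against WT (C57BL/6) and YAP KO TAZ HET against WT (mixed); filled points passed an adjusted p under 0.05. The lowest value is Slco1a1 (-5.59 and -4.38) and the highest Slc51b (4.59 and 3.58).

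Over the members tested, 4 of 9 were called lower and 2 of 9 higher in YAP KO, where 18.0% and 18.8% of all 11704 tested genes were. In YAP KO TAZ HET, 5 of 9 were called lower and 1 of 9 higher, where 19.0% and 19.2% of 11741 genes were. Slc10a1, Slco1a1, Slco1b2 and Abcc2 were called lower in both models and Slc51b was called higher in both. Slc51b through the deleted livers and Slco1a1 through the WT livers passed the filter by the group in which they are high, so these counts are a description. In deposited TPM, 6 of 10 members did not overlap with WT in each model, which is close to the 56.7% of tested genes in YAP KO livers and the 54.5% in YAP KO TAZ HET. An exact two-sided permutation test of the mean TPM gave p = 0.1 for each of those 6, the smallest value that 3 against 3 allows, and 0.2 to 0.5 for the other 4 in each model.

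Summed by role, uptake RNA was lower and basolateral export RNA higher in every deleted liver than in any WT liver of the same comparison. Canalicular sums lay just above WT in YAP KO (393 to 434.5 TPM against 257 to 390.2 TPM) and overlapped with WT in YAP KO TAZ HET (417 to 458 TPM against 296 to 474 TPM). Uptake summed to 1222 ± 25.0 TPM (SD) in WT (C57BL/6) and 513.9 ± 63.1 TPM in YAP KO, and to 1346 ± 49.6 TPM in WT (mixed) and 547.3 ± 180.7 TPM in YAP KO TAZ HET, n = 3 per group. The spread in YAP KO TAZ HET came from LM225 at 756 TPM, against 446 and 440 TPM in LM250 and LM251. Basolateral export summed to 132 ± 20.7 TPM (SD) and 282 ± 37.8 TPM in the YAP KO comparison and to 152 ± 15.0 TPM and 250 ± 15.5 TPM in the YAP KO TAZ HET comparison, WT first. Canalicular RNA summed to 326 ± 66.7 TPM (SD) and 418 ± 22.3 TPM, and to 386 ± 89.2 TPM and 443 ± 22.7 TPM. With the 12-library scaling factor divided out, canalicular means were 378.1 and 372.7, and 423.2 and 390.1, so the order of WT and deleted livers turned, whereas the uptake and export orders stayed.

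**Figure D3:**
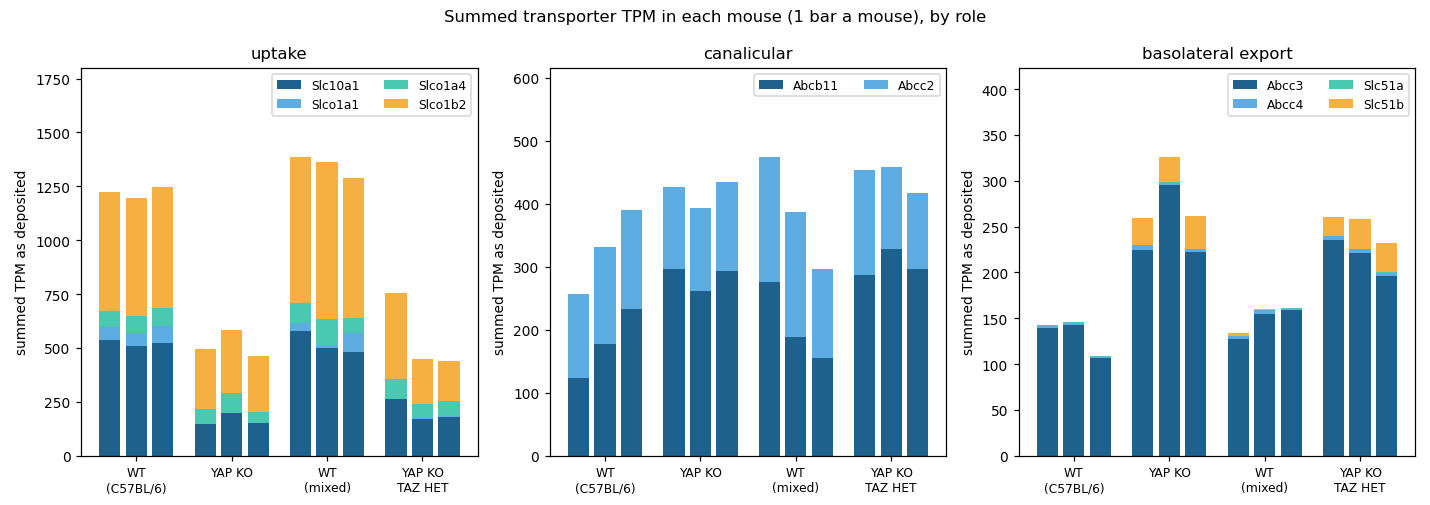
Summed TPM as deposited (vertical axis, from 0) of the uptake, canalicular and basolateral export members in each of the 12 mice; 1 bar is 1 mouse and colours are genes. Uptake bars stand at 1197 to 1385 TPM in WT and at 439.6 to 756 TPM in the deleted livers, and Slc51b makes up 7.85% to 13.9% of the export bars of the deleted livers.

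The make-up within roles also differed. Slco1a1 held 1.22% to 6.65% of uptake RNA in the WT livers and 0.023% to 0.5% in the deleted livers, and Slco1a4 held 5.58% to 8.71% and 10.8% to 16.5%. Abcc3 held 95.1% to 99.1% of export RNA in WT and 84.3% to 90.7% in the deleted livers, in which Slc51b supplied most of the rest. The ratio of uptake to basolateral export RNA was 8.22 to 11.5 in WT (C57BL/6) and 1.77 to 1.9 in YAP KO, and 8.03 to 10.3 in WT (mixed) and 1.73 to 2.9 in YAP KO TAZ HET. The ratio of Abcb11 to Slc10a1, an outward against an inward bile salt carrier, was 0.23 to 0.475 in the 6 WT livers and 1.09 to 1.99 in the 6 deleted livers. A single factor per library leaves both ratios unchanged, and neither overlapped between WT and deleted livers. In deposited TPM the 2 parts of each ratio already lay apart from WT in opposite directions. The ratios therefore had to stay apart within each comparison and are a description. Abcb11 by itself overlapped with WT after scaling, while Slc10a1 did not.

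The 2 models were compared directly, as the YAP KO difference minus the YAP KO TAZ HET difference in 1 fit of all 12 libraries. None of the 9 tested members was called (limma, adjusted p = 0.999 for each, 0 members at an unadjusted p under 0.05), against 0.0658% of 12159 genes tested. The intervals are wide: the difference was -1.23 for Slco1a1 (95% interval -2.71 to 0.25) and 1.03 for Slc51b (95% interval -0.11 to 2.17) on the log2 scale. For Slc10a1 it was -0.35 (95% interval -0.82 to 0.12), for Slco1b2 0.42 (95% interval -0.21 to 1.05) and for Abcc3 0.32 (95% interval -0.18 to 0.82). For Slco1a4 it was 0.03 (95% interval -0.68 to 0.74). These data therefore did not resolve a difference of the models in any member, and sizeable differences remain within the intervals.

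The WT groups, which differ in strain background and set of mice, were also compared. Of the 8 members tested, 0 were called (limma, 0 at an unadjusted p under 0.05), against 0.216% of 11126 genes. Slco1b2 was the only member without overlap, at 550 to 561 TPM in WT (C57BL/6) and 651 to 728 TPM in WT (mixed), with a log2 difference of 0.24 (95% interval -0.0015 to 0.49, limma, adjusted p = 0.86). Slco1a1 had the largest difference, -0.89 (95% interval -2.01 to 0.22, limma, adjusted p = 0.917), with the spread among WT (mixed) livers described above.

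Other transporters of these families, from lists put together around the members, moved in both directions. Of 3 tested genes among 9 other Slco genes, 2 were called lower in each model: Slco2b1 (log2 fold change -0.95 in YAP KO, -1.23 in YAP KO TAZ HET), a broad organic anion carrier, and the prostaglandin transporter Slco2a1 (-0.46 and -0.46). The Slco2a1 call was lost under 1 other scaling in YAP KO and under 2 in YAP KO TAZ HET. Of 9 tested other uptake carriers, 4 and 5 were called lower and 1 higher in each model. Among those lower in both were the carnitine carrier Slc22a5 (-1.26 and -1.30) and the nucleoside carrier Slc29a1 (-1.40 and -1.29), and the organic anion carrier Slc22a7 was called in YAP KO TAZ HET (-1.79, against -1.20 in YAP KO, not called). The gene called higher was Slc10a2 (1.67 and 0.95), the apical bile acid carrier of ileum and bile duct cells, with 4.75 to 5.72 TPM in WT (C57BL/6) and 20.1 to 26.7 TPM in YAP KO, and 6.81 to 11.9 TPM and 17.9 to 26.5 TPM in the other comparison.

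Of 9 tested other canalicular genes, 4 and 2 were called higher and 3 and 3 lower, with YAP KO given first. Abcb4, which moves phosphatidylcholine into bile and shields cells from bile salts, rose in both models (1.02 and 1.08), from 90.9 to 139.6 TPM in the WT livers to 265.8 to 336.7 TPM in the deleted livers. The aminophospholipid flippase Atp8b1 also rose (0.57 and 0.54), and Abcb1a rose in YAP KO (0.98). The sterol pump subunits Abcg5 (-1.41 and -1.71) and Abcg8 (-1.57 and -1.75) and the cation extruder Slc47a1 (-0.81 and -0.61) fell in both. Of 6 other Abcc genes tested in YAP KO, 3 were called higher and 2 lower, and of 5 in YAP KO TAZ HET, 2 higher and 1 lower. Abcc5 (0.83 and 1.06) rose and Abcc6 fell (-0.77 and -0.70) in both models, and Abcc10 fell (-0.48) in YAP KO. Abcc1 (0.71 and 0.83) was higher in both and Abcc12 (0.85) in YAP KO. Both passed the filter of 1 TPM in 3 livers only through the deleted livers. They therefore had to differ among tested genes, and their part in the counts is a description. The Abcc10 call was lost under 1 other scaling, as were the Abcc6 and Slc47a1 calls in YAP KO TAZ HET.

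Among regulators of these transporters, 16 were tested. Of these, 7 and 9 were called lower and 1 and 1 higher in the 2 models, with median log2 fold changes of -0.38 and -0.39. The xenobiotic receptor CAR (Nr1i3, -2.32 and -1.85), the fatty acid receptor Ppara (-1.55 and -1.88) and the estrogen receptor Esr1 (-1.30 and -0.95) fell in both, and the bile acid receptor S1pr2 rose (0.77 and 1.09). The S1pr2 call in YAP KO was lost under 1 other scaling. FXR (Nr1h4) fell from 97.3 to 128 TPM in WT (C57BL/6) to 60.2 to 75.8 TPM in YAP KO (-1.10, limma, adjusted p = 5.13e-04), and from 113.5 to 114.1 TPM in WT (mixed) to 53.3 to 87.5 TPM in YAP KO TAZ HET (-1.11). Its target Nr0b2 (SHP), named after its values were seen, was called lower in YAP KO TAZ HET (-0.88) and not in YAP KO (-0.54). Without scaling, 4 and 2 regulators were called higher and 4 and 5 lower.

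Genes that these receptors are known to control were called in both directions. Of 9 tested, 5 and 6 were called lower and 2 and 2 higher. Cyp3a11, known as a PXR target (1.75 and 1.36), and Nqo1, known as an NRF2 target (1.41 and 1.27), rose in both models. Cyp2b10, known as a CAR target (-2.16 and -2.56), Cyp4a10 (-2.72 and -1.95) and Cyp4a14 (-2.67 and -1.54), known as PPAR alpha targets, Cyp1a2 (-1.45 and -2.05) and the bile acid 12-hydroxylase Cyp8b1 (-2.13 and -2.74) fell in both. The RNA of the NRF2 gene Nfe2l2 and of the PXR gene Nr1i2 was not called in either model.

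**Figure D4:**
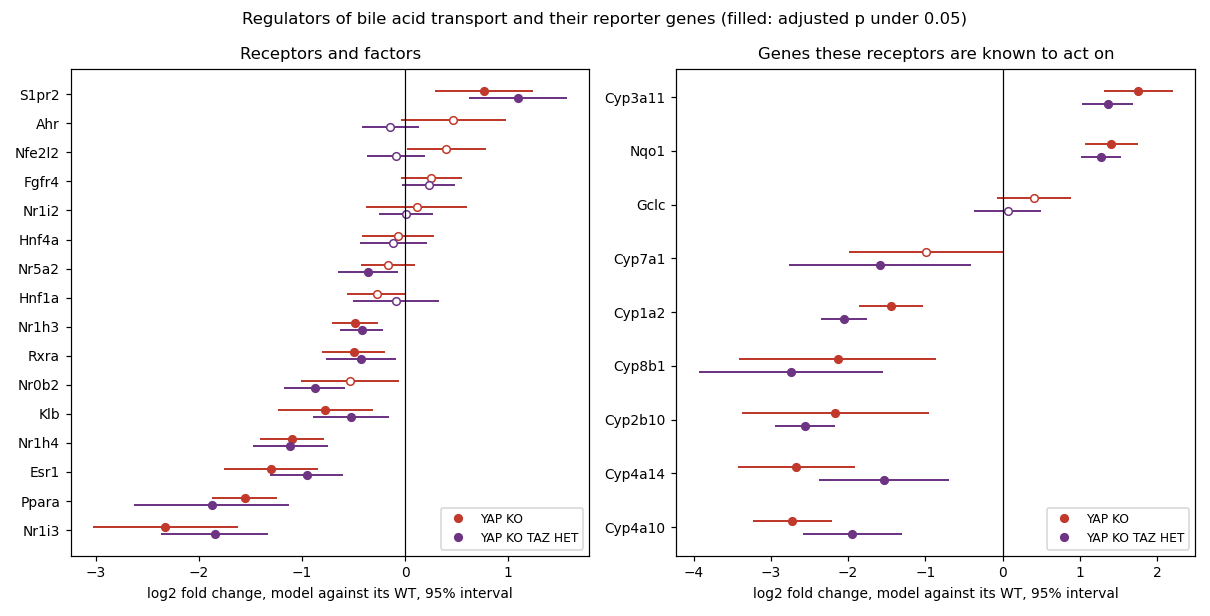
Log2 fold change with its 95% interval (horizontal axis) of 16 regulators (left) and 9 genes they are known to control (right) in each model against its WT group; filled points passed an adjusted p under 0.05. The lowest regulator values are those of Nr1i3 (-2.32 and -1.85) and Ppara (-1.55 and -1.88), and Cyp3a11 and Nqo1 are the highest reporter values.

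Of 12 genes that anchor or traffic canalicular transporters, 3 were called higher and 4 lower in YAP KO livers and 3 higher and 3 lower in YAP KO TAZ HET. The scaffolds Slc9a3r1 (-0.96 and -0.89) and Pdzk1 (-0.92 and -0.84) fell and moesin, Msn (0.84 and 0.86), rose in both models. Radixin, Rdx, the actin linker on which canalicular Abcc2 is known to depend, was called lower (-0.30 and -0.50). Its call in YAP KO was lost under all 3 other scalings, and its sign changed under 1 of them. In YAP KO TAZ HET the Rdx call was lost under 1 other scaling.

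Markers of other cell types moved with the members. Of 8 tested cholangiocyte markers, 4 were called higher in each model, Tff3 (3.38 and 3.40), Spp1 (3.03 and 1.33), Prom1 (2.38 and 1.77) and Sox9 (2.10 and 1.69). Tff3 passed the filter of 1 TPM in 3 livers only through the deleted livers, so its call is a description. The summed TPM of 12 markers was 105 to 147 in WT (C57BL/6), 452 to 904 in YAP KO, 149 to 173 in WT (mixed) and 272 to 365 in YAP KO TAZ HET. Spp1 made up most of the YAP KO sum, at 303 to 725 TPM against 26.0 to 49.0 TPM in WT (C57BL/6). It was at 84.4 to 208 TPM in YAP KO TAZ HET and 38.9 to 50.7 TPM in WT (mixed). The defining duct markers stayed low, with Krt7 at no more than 0.779 TPM in any liver and Krt19 at 0.216 to 6.39 TPM in WT and 0.404 to 3.15 TPM in the deleted livers, none of them at 0, and Epcam was called lower in YAP KO TAZ HET (-1.48). In that comparison Epcam passed the filter only through the WT livers, so this call is a description too. Of 10 macrophage markers, 9 and 8 were called higher, with sums of 128 to 151 TPM in WT (C57BL/6), 371 to 598 TPM in YAP KO, 112 to 203 TPM in WT (mixed) and 500.5 to 621 TPM in YAP KO TAZ HET, Cd14 (4.38 and 4.46) and Marco (2.70 and 2.84) having the largest values. Itgam, counted as higher in both models, passed the filter only through the deleted livers. Of 10 stellate and fibroblast markers, 6 and 6 were called higher, led by Col1a1 (4.02 and 3.11), and 2 and 0 lower, Lrat (-0.85) and Rgs5 (-0.93) in YAP KO, with sums of 139 to 179 TPM in WT and 384 to 579 TPM in the deleted livers. The Lrat call was lost under 1 other scaling. Of 10 endothelial markers, 1 and 2 were called higher and 3 and 3 lower. The part of these cells in the values of Slc51b, Abcc3, Abcc4, Abcc1 and Slc10a2 was not tested.

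The genes whose scaled log2 values followed each member most closely over the 12 livers are given as a description, since all 12 points share the group structure. Slc10a1 was followed most closely by the cytochrome P450 genes Cyp2c40 and Cyp2c69 (Pearson r 0.993 and 0.991), and Slco1a1 by the sulfotransferase genes Sult3a1 and Sult3a2 (0.986 and 0.985). Slco1b2 was followed by Mtfr1 and Coq10b (0.989 and 0.984), Slco1a4 by Ctns and Asl (0.951 and 0.946), and Abcc2 by Tspan12 and Fam91a1 (0.978 and 0.977). Slc51b was followed by Arl8a and Gm3776 (0.994 and 0.984). Abcb11, with Lnpep and Lgals9 (0.919 and 0.902), Abcc3, with Ube2o and Ddx54 (0.938 and 0.908), and Abcc4, with Dennd2d and Hspa4l (0.816 and 0.799), had looser ones.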

How the data were processed

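RNA from frozen whole liver was sequenced by the study with paired 150-base reads, quality-controlled, aligned to GRCm38.p6 and assigned to genes in CLC Genomics Workbench (20.0.3). The authors deposited TPM per gene and mouse in 2 tables, 1 per model, in which each library sums to 1000000, so the read counts reached per library, for which the study gives only a nominal depth, and the counting error are unknown. Their fold change and p-value columns, from the authors' own comparisons, were not used. All 12 columns were mapped to mice by label, with 0 left over, and no pair of libraries was identical. Whether strand was used in counting is not given in the sources used here. TPM were divided by trimmed-mean factors (30% of ratios and 5% of levels trimmed at each end) and tested as log2(value + 1) with limma (3.58.1, R 4.3.3; eBayes with trend) on genes with at least 1 TPM in 3 libraries of the fit, tested on simulated data beforehand. A model fit used its 6 libraries. P-values are two-sided and adjusted by Benjamini-Hochberg over all genes. Exact permutation tests used scipy (1.17.1). WT mice were littermates, but the labels do not give litters, so nothing was paired. Named non-members are at most 3 higher and 3 lower called genes of a list with the largest change, the stated checks and the 2 genes most like each member. Promoters are from RefSeq tables, which held 9 of the 10 members. Members and lists were chosen with earlier results of these data known. Alternatives were another pseudocount, filter, scaling, robust or 12-library fits, and leaving out each mouse.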

Additional observations from a re-analysis of the deposited data

Results flagged for a closer look

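The difference between the models was called for 1 of the genes described, Yap1 itself, and for none of the transporters. Yap1 differed by -1.59 on the log2 scale (95% interval -2.10 to -1.08, limma, adjusted p = 0.0326), as its fall was -3.51 in YAP KO livers and -1.93 in YAP KO TAZ HET. All 3 YAP KO livers (1.67 to 3.72 TPM) were below all 3 YAP KO TAZ HET livers (8.63 to 11.5 TPM), and the cause was not tested.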

How the results depend on the processing

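Slc10a1, Slco1a1, Slco1b2 and Slc51b kept their direction and their call in both models under every alternative that gave a value, with log2 fold changes from -2.18 to -1.66 and -1.83 to -1.32 for Slc10a1, -7.16 to -5.32 and -5.22 to -3.78 for Slco1a1, -1.43 to -1.0 and -2.09 to -1.40 for Slco1b2, and 4.52 to 6.88 and 3.15 to 4.64 for Slc51b. Slc51b gave no value in YAP KO with a YAP KO mouse left out, since it then failed the filter. Slco1a1 and Slc51b passed the filter by the group in which they are high, so their kept calls in filtered fits are a description. Between 4 and 6 members were called in YAP KO and 5 or 6 in YAP KO TAZ HET, and 0 in the comparison of the models and of the WT groups throughout. The calls of Slco1a4, Abcb11, Abcc2 and Abcc3 that turned are given with those genes. Abcc4 in YAP KO TAZ HET ran from -0.0705 to 0.50 with a mouse left out. In the difference between the models, leaving out a mouse moved Slco1a4 from -0.22 to 0.30, Abcb11 from -0.18 to 0.32 and Abcc4 from -0.16 to 0.45, and quantile normalization gave -0.0165 for Slco1a4. Between the WT groups it moved Slco1a4 from -0.0058 to 0.34, Abcb11 from -0.10 to 0.40 and Abcc4 from -0.10 to 0.45. Genes called in YAP KO TAZ HET numbered 2833 to 4069 with a mouse left out, lowest without LM251, against 4486, and 3110 to 3965 against 4299 in YAP KO. For the difference between the models, 8 genes were called, 3 with a pseudocount of 0.1, 2 without the filter, and 3 to 20 with a mouse left out, highest without LM74. Between the WT groups 24 were called, 15 without the filter and 8 to 28 with a mouse left out. Of 153 calls of listed genes in either model, 2 changed sign and 31 were lost under another scaling, an alternative chosen after seeing the data. The causes were not tested. No paired analysis was possible because the labels do not give litters, so litter is not accounted for in any fit. TPM keep no depth, so values near 1 TPM, as for Abcc4 and Slc51a, cannot be weighed against counting error.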
